A study of Mus musculus with 9 samples.

Results

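The expression of 10 genes of the endothelial cells that form the blood-brain barrier was followed in mouse brain: Cldn5, Ocln, Pecam1, Cdh5, Tie1, Flt1, Slco1a4, Abcb1a, Mfsd2a and Esam. They were taken by gene symbol from the annotation of the Clariom S mouse array, where each of the 10 had 1 probe set among 19572 probe sets with 1 symbol, covering 19505 genes. Signals were read on 9 arrays, 3 for each of 3 groups of male mice on the C57BL/6JHamSlc background. The groups were C57BL/6JHamSlc-+/+ (wild type) given vehicle, C57BL/6JHamSlc-ob/ob given vehicle, and C57BL/6JHamSlc-ob/ob given an extract of Vigna umbellata (VE) at 100 mg/kg by gavage, each for 42 days on standard chow. The ob/ob genotype is a loss of leptin carried in every cell of the animal, and both ob/ob groups carry it. Mice were 6 weeks old when housing began. The labels say neither which part of the brain was sampled nor whether its vessels were flushed of blood. Nothing in them says whether the 3 replicates of a group were separate animals, so p-values measure the spread between these samples, which may be technical.

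The endothelial cells of brain capillaries are sealed to each other by tight junctions, and this keeps most blood-borne molecules out of the tissue. Claudin-5, the product of Cldn5, is the dominant sealing protein of these junctions and occludin, from Ocln, is a second membrane protein in the same strands. Vesicle traffic across the cells is held low, a state that needs the lipid transporter Mfsd2a, and efflux pumps such as P-glycoprotein (Abcb1a) return drugs to the blood. Wnt signals from neural cells, together with contact from pericytes and astrocyte endfeet, maintain this state.

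The stretch of 250 bases before an annotated start is shown for the 3 genes whose signal was more than 0.5 log2 units higher in VE than in ob/ob vehicle brain. They are read 5′ to 3′ on the gene's strand from RefSeq on GRCm38.p6. Capitals mark the motifs searched on both strands.
Cldn5 at chr16:18776597-18776846, plus strand: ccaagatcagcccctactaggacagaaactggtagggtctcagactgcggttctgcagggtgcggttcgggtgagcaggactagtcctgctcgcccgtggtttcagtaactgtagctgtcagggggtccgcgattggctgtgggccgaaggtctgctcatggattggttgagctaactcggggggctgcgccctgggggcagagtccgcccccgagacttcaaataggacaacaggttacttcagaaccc
Slco1a4 at chr6:141856221-141856470, minus strand: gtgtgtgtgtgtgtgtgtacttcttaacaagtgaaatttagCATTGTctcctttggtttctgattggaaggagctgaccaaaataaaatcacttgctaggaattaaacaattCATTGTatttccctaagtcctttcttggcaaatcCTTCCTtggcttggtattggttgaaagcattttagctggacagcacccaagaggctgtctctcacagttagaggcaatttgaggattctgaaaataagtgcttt
Abcb1a at chr5:8566841-8567090, plus strand: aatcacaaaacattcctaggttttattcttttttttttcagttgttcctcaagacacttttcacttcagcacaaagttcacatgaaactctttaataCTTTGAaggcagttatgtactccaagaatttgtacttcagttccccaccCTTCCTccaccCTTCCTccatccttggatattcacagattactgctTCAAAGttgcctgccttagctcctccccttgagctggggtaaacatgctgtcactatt
The motifs were AGGAAG and CCGGAAG for ETS factors, which drive many endothelial genes, ACAATG for SOX factors and CTTTGA for the TCF and LEF factors of Wnt signalling. AGGAAG and CCGGAAG share a core but cannot occupy the same one. The promoter table held 8 windows for 7 of the 10 genes, with 2 overlapping starts for Ocln and no entry for Pecam1, Cdh5 or Esam. Some windows reach into the annotated gene. That of Flt1 lies wholly within it, and those of Slco1a4 and Mfsd2a and the second of Ocln lie in it in part. AGGAAG stood in 4 of the 8 windows (Tie1, Flt1, Slco1a4 and Abcb1a), or 50%, against 29.5% of all 32851 windows of 250 bases. CTTTGA stood in 2 of 8 (Mfsd2a and Abcb1a), or 25%, against 13.8%. ACAATG stood in 1 of 8 (Slco1a4), or 12.5%, against 10.7%, and CCGGAAG in 0 of 8 against 6.91%. The Cldn5 window and both Ocln windows held none of the 4 motifs, which says only that these letters are not in these windows.

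The second VE array stood apart over all probe sets. It correlated with each of the rest at 0.962 to 0.970, while those 8 correlated among themselves at 0.979 to 0.993, and its median of 7.01 lay below their 7.12 to 7.23. The leading results of the 10 genes that involve it are therefore given with and without it. All 8 measured neuron markers were above the median level of 7.13 over probe sets (means of 10.4 to 18.6), as the brain label asks. Of 25 other endothelial identity genes 3 had a mean above that level, and of the 10 genes studied 6 did. Fewer endothelial cells and less RNA per cell cannot be told apart in whole tissue. Endothelial cells were not isolated, so a signal shared with another cell type is counted in full.

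None of the 10 genes passed the test in any comparison. The background was 281 of 22206 probe sets called in ob/ob vehicle against wild type (1.27%), 108 in VE against ob/ob vehicle (0.486%) and 22 in VE against wild type (0.0991%), at a limma adjusted p under 0.05. Across any difference among the 3 groups, 0 of the 10 passed the moderated F test of limma, against 1.07% of all probe sets. The smallest difference in size that was called for any probe set was 0.85, 1.01 and 1.14 in the 3 comparisons, in the order above. The largest among the 10 genes were -0.89, 0.77 and -0.69, so the lack of a call does not show a lack of change. At an unadjusted p under 0.05 in limma, Ocln and Mfsd2a had lower signals in ob/ob vehicle than in wild type, against 10.2% of all probe sets in that direction, and 0 had higher ones, against 9.88%. By the same rule Cldn5 and Slco1a4 had higher signals in VE than in ob/ob vehicle, against 3.21%, and 0 had lower ones, against 10.1%. In VE against wild type Mfsd2a had a lower signal, against 9.21%, and 0 had a higher one, against 2.98%. Counted in both directions, these were 2, 2 and 1 of 10, beside 20.1%, 13.3% and 12.2% of all probe sets. The per-array values below are log2 signals, and a difference of 1 is a doubling. Each probe set has its own brightness, so levels are compared between arrays and not between genes.

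**Figure D1:**
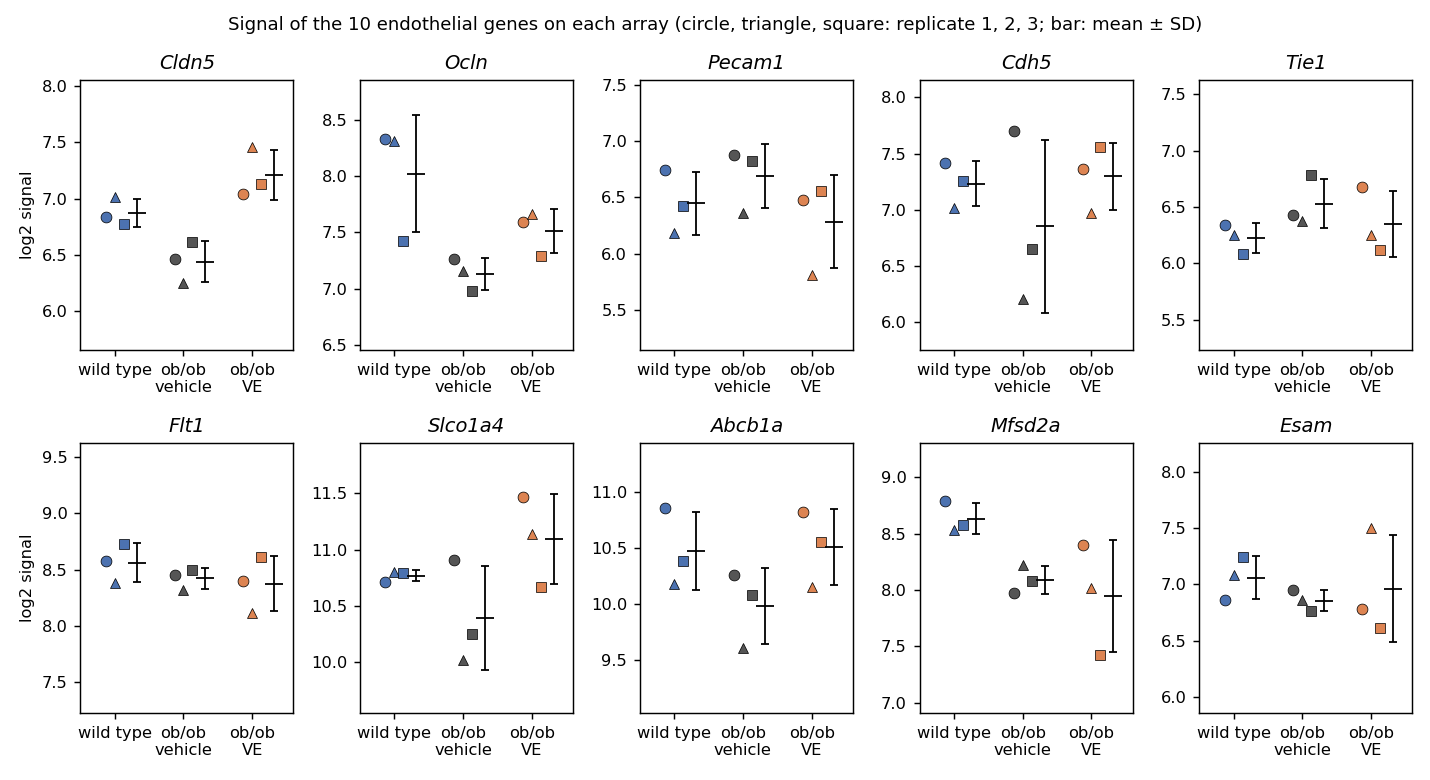
Log2 signal (vertical axis) of each of the 10 genes on the 9 arrays, by group (horizontal axis), with a vertical span of equal size in every panel. Points are single arrays, bars are the group mean and SD (n = 3), and Cldn5, Ocln and Mfsd2a show ob/ob vehicle arrays below every wild-type array.

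Of the tight junction genes, Ocln had the smallest adjusted p of the 10 in ob/ob vehicle against wild type and Cldn5 in VE against ob/ob vehicle, and neither passed. Cldn5 read 6.84, 7.01 and 6.77 in wild type, 6.46, 6.25 and 6.61 in ob/ob vehicle, and 7.04, 7.46 and 7.13 in VE. The 3 groups did not overlap: every ob/ob vehicle array was the lower, every VE array the higher, and wild type stood between. The difference of VE from ob/ob vehicle was 0.77 (SE 0.202), or 1.71-fold, with a 95% interval of 0.33 to 1.21 and a limma adjusted p of 0.104 (n = 3). That difference was 0.64 without VE array 2 (SE 0.196, limma adjusted p 0.0979), 0.89 with arrays centred on their medians, and 0.95 after quantile normalization, where Cldn5 passed (limma adjusted p 0.038, with 1.46% of all probe sets called). Over the alternatives its limma adjusted p ran from 0.00833 to 0.318. Against wild type, Cldn5 was at -0.43 in ob/ob vehicle (SE 0.202, limma adjusted p 0.252) and at 0.34 in VE (SE 0.202, limma adjusted p 0.513). The second of these was 0.21 without VE array 2.

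Ocln read 8.33, 8.31 and 7.42 in wild type, 7.26, 7.16 and 6.98 in ob/ob vehicle, and 7.59, 7.66 and 7.29 in VE. Wild-type array 3 was close to the ob/ob arrays, yet neither ob/ob vehicle and wild type nor ob/ob vehicle and VE overlapped. The difference of ob/ob vehicle from wild type was -0.89 (SE 0.254), a level lower by 1.85-fold, with a 95% interval of -1.44 to -0.34 and a limma adjusted p of 0.0898 (n = 3). It passed when VE array 2, which is in neither group but shares the estimate of spread, was left out (limma adjusted p 0.022), and 13.4% of all probe sets were then called. It also passed with the 2 groups fitted alone (limma adjusted p 0.0301, 11.8% of all probe sets called). Without wild-type array 3 the difference was -1.19, and over the alternatives it ran from -1.19 to -0.73 (limma adjusted p 0.0202 to 0.293). VE stood at 0.38 against ob/ob vehicle (limma adjusted p 0.557, SE 0.254) and at -0.51 against wild type (SE 0.254, limma adjusted p 0.445). The VE difference from wild type was -0.81 without wild-type array 3. It passed with array weights (-0.64, limma adjusted p 0.028), which set the difference from ob/ob vehicle at 0.21. The weights were 0.637, 0.145 and 6.7 for VE arrays 1, 2 and 3, and 14.8% of all probe sets were called in VE against wild type.

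Occludin is also made by the epithelium of the choroid plexus, and markers of that epithelium were lower in the same comparison. Folr1, its folate receptor, fell by 2.06 in ob/ob vehicle against wild type (n = 3, SE 0.324, limma adjusted p 0.0236), and Kl, the gene of klotho, fell by 2.01 (SE 0.422, limma adjusted p 0.0434). Both calls were lost without wild-type array 2 or 3 or any single ob/ob vehicle array (limma adjusted p 0.054 to 0.203). That of Kl was also lost without VE array 3 (limma adjusted p 0.0557). Without 1 of those wild-type or ob/ob vehicle arrays, 0 to 0.0946% of all probe sets were called, so nearly every call was lost. All 6 measured markers were lower, 2 of them called. The log2 of their summed signal was 19.28 to 19.88 in wild type, 15.13 to 19.31 in ob/ob vehicle and 15.45 to 19.25 in VE, with 4 of the 6 markers above the median level of all probe sets. Their part in the Ocln result was not tested.

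Transcripts of adhesion proteins at the endothelial contacts gave differences within the spread of their arrays. Cdh5, the VE-cadherin of adherens junctions, read 7.42, 7.02 and 7.26 in wild type, 7.70, 6.21 and 6.65 in ob/ob vehicle, and 7.36, 6.97 and 7.56 in VE. Its ob/ob vehicle arrays spanned both the lowest and the highest of all 9 values, an SD of 0.766, and the differences of -0.38 from wild type (SE 0.323) and of VE from ob/ob vehicle, 0.44 (SE 0.323), were within that spread (limma adjusted p 0.534 and 0.592). Without ob/ob vehicle array 1 these differences were -0.80 and 0.87, and without ob/ob vehicle array 2 they were -0.058 and 0.12. With array weights the second passed (0.75, limma adjusted p 0.0317). VE array 3 carried a weight of 6.7 there, and 14.9% of all probe sets were called. Esam, an immunoglobulin-family adhesion molecule, read 6.86, 7.08 and 7.24 in wild type, 6.95, 6.86 and 6.76 in ob/ob vehicle, and 6.78, 7.50 and 6.61 in VE. Its difference of ob/ob vehicle from wild type was -0.20 (SE 0.242, limma adjusted p 0.67), and -0.11 without wild-type array 3. The high value was on VE array 2, and the difference of VE from ob/ob vehicle, 0.11, became -0.16 without that array.

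Pecam1, the CD31 antigen also carried by platelets and leukocytes, read 6.74, 6.18 and 6.42 in wild type, 6.88, 6.36 and 6.82 in ob/ob vehicle, and 6.48, 5.81 and 6.56 in VE. All 3 groups overlapped, with differences of 0.24 for ob/ob vehicle against wild type and -0.40 for VE against ob/ob vehicle (limma adjusted p 0.626 and 0.532, SE 0.255 for both). The first of these ran from 0.11 without wild-type array 2 to 0.40 without ob/ob vehicle array 2, and the second was -0.17 without VE array 2. Of 7 measured leukocyte and platelet markers 6 had positive differences in ob/ob vehicle against wild type, with a median of 0.23 and 0 called. Only 1 of the 7 lay above the median level of all probe sets, and Pecam1 lay below it. The median difference was -0.21 over probe sets above that level and 0.02 over all. The part of leukocytes and platelets in the Pecam1 values was not tested.

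The receptor genes had differences of at most 0.31 log2 units in size. Tie1, an orphan receptor that modulates angiopoietin signals, read 6.34, 6.25 and 6.08 in wild type, 6.43, 6.38 and 6.78 in ob/ob vehicle, and 6.68, 6.25 and 6.12 in VE. Its ob/ob vehicle arrays lay above all wild-type arrays, with a difference of 0.31 (SE 0.216, limma adjusted p 0.445), and the groups overlapped after quantile normalization or centring of arrays. That difference was 0.18 without ob/ob vehicle array 3. Flt1, a receptor for VEGF that binds the ligand tightly and limits its action, read 8.58, 8.38 and 8.73 in wild type, 8.45, 8.32 and 8.50 in ob/ob vehicle, and 8.40, 8.12 and 8.61 in VE. Its differences were -0.14, -0.05 and -0.19 in the 3 comparisons (SE 0.203, limma adjusted p 0.728 to 0.947). The 95% interval for ob/ob vehicle against wild type, -0.58 to 0.30, still allows a change of 0.5 log2 units downwards.

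The transporter genes were lower in ob/ob vehicle than in wild type in 3 of 3 means, and none passed. Mfsd2a, the carrier of lysophosphatidylcholine with docosahexaenoic acid, read 8.79, 8.53 and 8.58 in wild type, 7.97, 8.22 and 8.08 in ob/ob vehicle, and 8.40, 8.02 and 7.42 in VE. All 6 ob/ob arrays were below all wild-type arrays, whether given vehicle or VE. The difference was -0.54 for ob/ob vehicle (n = 3, SE 0.244, limma adjusted p 0.235) and -0.69 for VE (SE 0.244, limma adjusted p 0.285). The VE value was -0.42 without VE array 3, the lowest of the 9, and -1.10 with array weights, where it passed (limma adjusted p 0.000699). That same array carried a weight of 6.7 there, against 0.637 and 0.145 for the other VE arrays, and 14.8% of all probe sets were called. The VE difference from ob/ob vehicle was -0.14 (SE 0.244), and 0.12 without VE array 3.

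Slco1a4, the organic anion transporter Oatp1a4, read 10.71, 10.80 and 10.79 in wild type, 10.91, 10.02 and 10.25 in ob/ob vehicle, and 11.47, 11.14 and 10.67 in VE. The first ob/ob vehicle array was above wild type while the other ob/ob vehicle arrays were below. The difference of ob/ob vehicle from wild type was -0.37 (SE 0.264, limma adjusted p 0.448), -0.63 without ob/ob vehicle array 1 and -0.19 without ob/ob vehicle array 2. VE differed from ob/ob vehicle by 0.70 (SE 0.264), or 1.62-fold, with a 95% interval of 0.13 to 1.27 and a limma adjusted p of 0.263 (n = 3). It differed by 0.68 without VE array 2 and by 0.40 with array weights. Abcb1a, the P-glycoprotein pump, read 10.85, 10.18 and 10.38 in wild type, 10.26, 9.61 and 10.08 in ob/ob vehicle, and 10.82, 10.15 and 10.55 in VE. Wild type and VE covered nearly the same range, with a difference of 0.04 (SE 0.258). The ob/ob vehicle mean was -0.49 from wild type (SE 0.258, limma adjusted p 0.308), and VE was at 0.52 from ob/ob vehicle (SE 0.258, limma adjusted p 0.407). The first of these was -0.30 without wild-type array 1 or without ob/ob vehicle array 2, and -0.28 after quantile normalization. The second was 0.34 without ob/ob vehicle array 2, and it passed with array weights (0.59, limma adjusted p 0.0382). In that fit VE array 3 carried a weight of 6.7, and 14.9% of all probe sets were called.

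Both transporters have close relatives on the same chromosome that the array measures apart. Abcb1b, the paralogue of Abcb1a on chromosome 5, read 6.38 to 6.89 in wild type, 6.23 to 6.68 in ob/ob vehicle and 6.21 to 7.13 in VE. On chromosome 6, Slco1a5 read 7.01 to 7.34, 6.62 to 7.00 and 6.47 to 7.02 in the same order, and Slco1a1 6.62 to 6.92, 6.81 to 7.27 and 6.11 to 7.39. Slco1a6 read 7.39 to 9.12, 8.27 to 9.13 and 8.55 to 10.10. The ob/ob vehicle and VE arrays overlapped in each of the 4 relatives, and Slco1a5 alone had all ob/ob vehicle arrays below wild type (-0.36, SE 0.218, limma adjusted p 0.367).

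**Figure D2:**
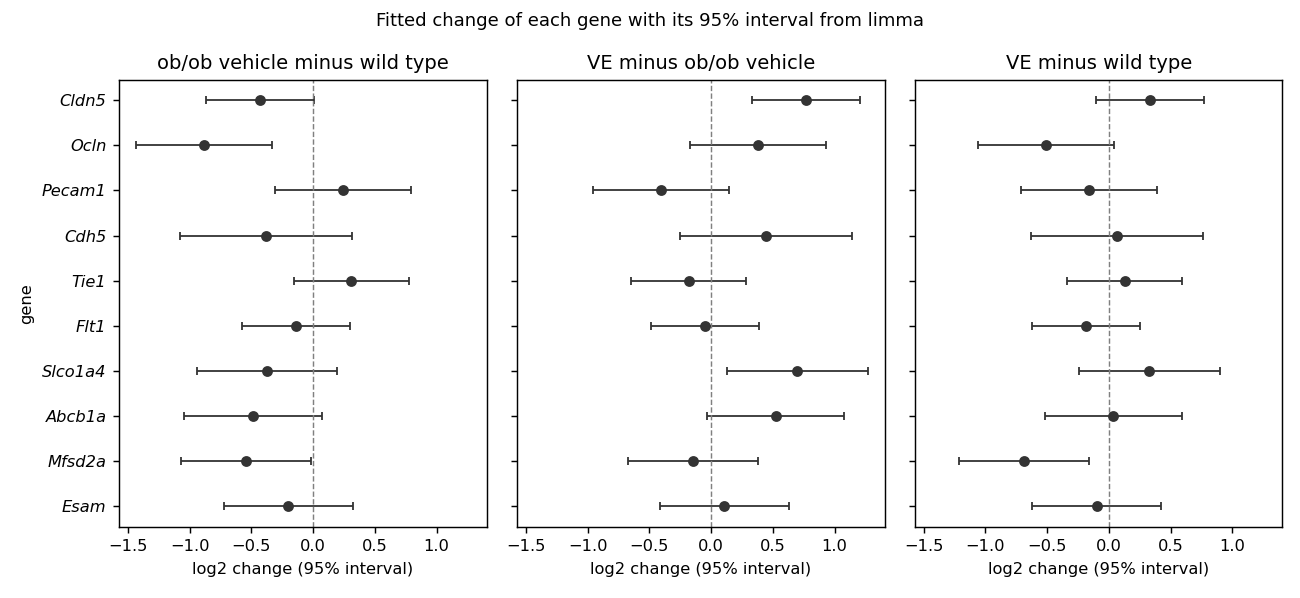
Difference in log2 signal (horizontal axis) of each gene (vertical axis) in the 3 comparisons, with 95% intervals from limma over 9 arrays. Intervals of Ocln and Mfsd2a in the first panel, Cldn5 and Slco1a4 in the second and Mfsd2a in the third lie off 0 before adjustment.

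Counted together in ob/ob vehicle against wild type, 8 of 10 genes were lower by their means, with a median difference of -0.38, while the median over all probe sets was 0.02, with 48.7% below 0 and 51.2% above. Bright probe sets were lower as a whole: the median was -0.21 over probe sets above the median level and -0.27 over the 7402 brightest. Cldn5, Ocln and Mfsd2a were the 3 whose ob/ob vehicle arrays all lay below wild type, against 17.5% of probe sets, and Tie1 was the 1 whose arrays all lay above, against 15.8%. The per-array medians of the 10 differences from the wild-type mean were -0.11, -0.52 and -0.34 in ob/ob vehicle. On the wild-type arrays they were 0.14, -0.04 and -0.04. Without ob/ob vehicle array 2, which held the lowest of the 9 values for 4 of the 10 genes, the median difference was -0.20.

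Against ob/ob vehicle, VE brain had higher means in 6 of the 10 genes, a median difference of 0.24, while the median over all probe sets was -0.07, with 41.8% above 0 and 58.1% below. Cldn5 and Ocln were the 2 whose VE arrays all lay above ob/ob vehicle, against 4.62% of probe sets, and 0 lay wholly below, against 11.9%. After quantile normalization or centring of arrays, Abcb1a was a further gene with all VE arrays above ob/ob vehicle. The median difference was 0.115 without ob/ob vehicle array 2, 0.19 without VE array 2 and 0.41 after quantile normalization. Without VE array 2, 0 of 10 were called with 1.81% of all probe sets. Against wild type the median was -0.03 in VE, with 5 genes on either side, and -0.07 over all probe sets, of which 58.9% lay below 0 and 41% above. Cldn5 was the 1 gene with all VE arrays above wild type, against 5.34%, and Mfsd2a the 1 with all below, against 11.5%. The first pair of comparisons shares the ob/ob vehicle arrays, so a low value there lowers one difference and raises the other.

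Genes that share the work of the barrier gave few calls. In ob/ob vehicle against wild type, 1 of 20 other barrier transporters was called: Slc38a3, a glutamine transporter also present in astrocytes, fell by 1.03 (n = 3, SE 0.216, limma adjusted p 0.0434), from 10.62, 10.44 and 10.58 to 9.45, 9.21 and 9.90. The list had 15 of 20 genes lower and a median of -0.36. Slc7a5, the large neutral amino acid transporter, was at -0.84 (SE 0.218, limma adjusted p 0.0694). In VE against ob/ob vehicle 0 of 20 were called, with a median of 0.06, and the thiamine transporter Slc19a3 had the smallest p, at 0.50 (SE 0.226, limma adjusted p 0.366). In VE against wild type 17 of 20 were lower, with a median of -0.32 and 0 called.

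Among 16 junction partners 0 were called in any of the 3 comparisons, with medians of -0.19, 0.12 and -0.20. Cldn1, a claudin of epithelia and meninges, was at -0.87 in ob/ob vehicle (SE 0.238, limma adjusted p 0.0816) and at -1.05 in VE against wild type (SE 0.238, limma adjusted p 0.122), with no overlap in either. Cgn, the cytoplasmic junction protein cingulin, was at 0.71 in ob/ob vehicle (SE 0.200, limma adjusted p 0.086) and -0.57 in VE against ob/ob vehicle (limma adjusted p 0.225, SE 0.200). The 25 endothelial identity genes had medians of -0.04, -0.05 and -0.003 with 0 called. Their smallest p in ob/ob vehicle against wild type belonged to Eng, a TGF-beta co-receptor, at -0.90 (SE 0.237, limma adjusted p 0.073). Lmo2, a transcription cofactor of endothelial and blood cells, was at 0.83 (SE 0.245, limma adjusted p 0.0949). Of the 25 genes 3 lay wholly above wild type, against 15.8% of all probe sets, and 3 wholly below, against 17.5%.

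In the zonation list of 11 genes, Rgcc, a cell cycle regulator of capillary endothelium, fell by 1.03 in ob/ob vehicle (n = 3, SE 0.195, limma adjusted p 0.0366), from 7.44, 7.51 and 7.60 to 6.69, 6.32 and 6.45. It stood at 6.92, 6.67 and 6.61 in VE, which was -0.78 from wild type (SE 0.195, limma adjusted p 0.147). The list's medians were -0.07, -0.003 and 0.23. The calls of Slc38a3 and Rgcc were lost when any single wild-type or ob/ob vehicle array was left out (limma adjusted p 0.0877 to 0.176 and 0.0593 to 0.186), and also without VE array 3 (0.0578 and 0.0513). That of Slc38a3 was lost after quantile normalization too (0.0584).

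The Wnt pathway, which induces the barrier, gave 0 calls among 17 genes. Lef1, a nuclear mediator and target of Wnt signalling, read 6.14, 6.09 and 6.44 in wild type, 5.27, 5.66 and 5.40 in ob/ob vehicle, and 6.30, 6.43 and 5.86 in VE. Its ob/ob vehicle arrays lay below all others, with differences of -0.78 from wild type (SE 0.219, limma adjusted p 0.0857) and 0.75 for VE against ob/ob vehicle (limma adjusted p 0.145, SE 0.219). Axin2, a feedback inhibitor of the pathway, was at 0.57 in VE against ob/ob vehicle (limma adjusted p 0.282, SE 0.222), while Reck, a membrane cofactor of Wnt7 signalling, was at -0.51 (limma adjusted p 0.374, SE 0.235). The medians of the list were -0.12, 0.01 and -0.20.

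Ligands of the vessel wall were measured on the same arrays as the receptor genes Tie1 and Flt1. Vegfa, the main angiogenic ligand, read 12.26, 13.04 and 12.65 in wild type, 13.03, 12.60 and 12.79 in ob/ob vehicle, and 11.96, 11.60 and 12.19 in VE. Every VE array was below all others, with differences of -0.89 from ob/ob vehicle (SE 0.246, limma adjusted p 0.123) and -0.73 from wild type (SE 0.246, limma adjusted p 0.257). Vegfb, a ligand of the Flt1 receptor, was at -0.80 in ob/ob vehicle against wild type (SE 0.219, limma adjusted p 0.0809). Vegfd, a ligand best known from lymphatic vessels, was at 0.67 in that comparison (SE 0.269, limma adjusted p 0.19) and at -0.68 in VE against ob/ob vehicle (limma adjusted p 0.291, SE 0.269). The list of 14 ligands and receptors had 0 calls, with medians of 0.15, -0.20 and -0.19.

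Among genes of the cells around the endothelium, calls were made in the list of astrocyte endfeet. Of 8 genes of astrocyte endfeet, which wrap the capillaries, 3 were called in ob/ob vehicle against wild type. All 8 were lower, with a median of -0.67, as were 77% of the 7402 brightest probe sets. The potassium channel gene Kcnj10 fell by 1.43 (n = 3, SE 0.218, limma adjusted p 0.0207), the adhesion gene Hepacam by 1.16 (SE 0.239, limma adjusted p 0.0415) and the water channel gene Aqp4 by 0.91 (SE 0.199, limma adjusted p 0.0467). The calls of Hepacam and Aqp4 were lost without any single wild-type or ob/ob vehicle array or VE array 3, and that of Kcnj10 without any wild-type array or ob/ob vehicle array 2 or 3 (limma adjusted p 0.0541 to 0.208 over these). Hepacam and Aqp4 also missed the threshold after quantile normalization (limma adjusted p 0.0661 and 0.121), and Aqp4 with eBayes trend and robust options (0.0524). With any single wild-type or ob/ob vehicle array left out, 0 to 0.0946% of all probe sets were called, so nearly every call was lost. Pericyte and smooth muscle genes had 0 of 17 called, with medians of 0.12, -0.10 and -0.02. Among them Rgs5 was at -0.71 in ob/ob vehicle (SE 0.269, limma adjusted p 0.169), while the pericyte markers Higd1b and Atp13a5 were at 0.61 (SE 0.236, limma adjusted p 0.174) and 0.60 (SE 0.234, limma adjusted p 0.178). None of these overlapped between the groups. In the same list the hypoxia-linked Ndufa4l2 was at 0.88 in VE against ob/ob vehicle (limma adjusted p 0.0685, SE 0.199). This difference passed in 5 of 16 alternatives (limma adjusted p 0.000331 to 0.256 over the 16). One of these 5 was the fit without VE array 2, where 1.81% of all probe sets were called. The 12 basement membrane genes had medians of -0.08, -0.10 and -0.07 with 0 called, Fn1 being at -0.82 in ob/ob vehicle (SE 0.277, limma adjusted p 0.135). Genes of transcytosis and leakage (11) and of endothelial activation (7) had 0 calls. Of these, Ager was at 1.00 in ob/ob vehicle (SE 0.321, limma adjusted p 0.12) and Vcam1 at -0.48 (SE 0.226, limma adjusted p 0.259).

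Markers of other brain cells were measured on the same arrays. Most bright probe sets were lower: of the 7402 brightest, 77% were lower in ob/ob vehicle and 83.1% in VE, each against wild type. All 8 neuron, 6 astrocyte and 5 oligodendrocyte markers lay above the median level of all probe sets. In ob/ob vehicle against wild type all 8 neuron markers were lower (median -0.61, 0 called), as were all 6 astrocyte markers (-0.67, 2 called), all 5 oligodendrocyte markers (-1.16, 0 called) and all 5 microglia markers (-0.61, 0 called). In VE against wild type the medians were -0.81 for neurons (7 of 8 lower), -1.04 for astrocytes (6 of 6), -0.84 for oligodendrocytes (5 of 5), -0.62 for microglia (4 of 5), -0.95 for choroid plexus (6 of 6) and -0.63 for astrocyte endfeet (8 of 8), with 0 called. In VE against ob/ob vehicle they were -0.20, 0.14, 0.003, 0.19, 0.23 and 0.13 in the same order, also with 0 called. Per-array medians of the neuron markers were -0.96 to -0.35 in ob/ob vehicle and -1.92 to -0.06 in VE, the lowest on VE array 2. The 4 lymphatic, 4 ependymal and 6 meningeal fibroblast markers had medians of -0.14, -0.14 and -0.01 in ob/ob vehicle against wild type. They held 1 call in that comparison, the meningeal Igf2, which fell by 1.92 (n = 3, SE 0.281, limma adjusted p 0.0193). That call was lost without any wild-type array or ob/ob vehicle array 2 or 3 (limma adjusted p 0.0845 to 0.143). With 1 of these arrays left out, 0 to 0.0901% of all probe sets were called. One red blood cell marker was measured, Alas2, at 0.30 in ob/ob vehicle (SE 0.254, limma adjusted p 0.537). The part of these shifts in the values of the 10 endothelial genes was not tested.

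**Figure D3:**
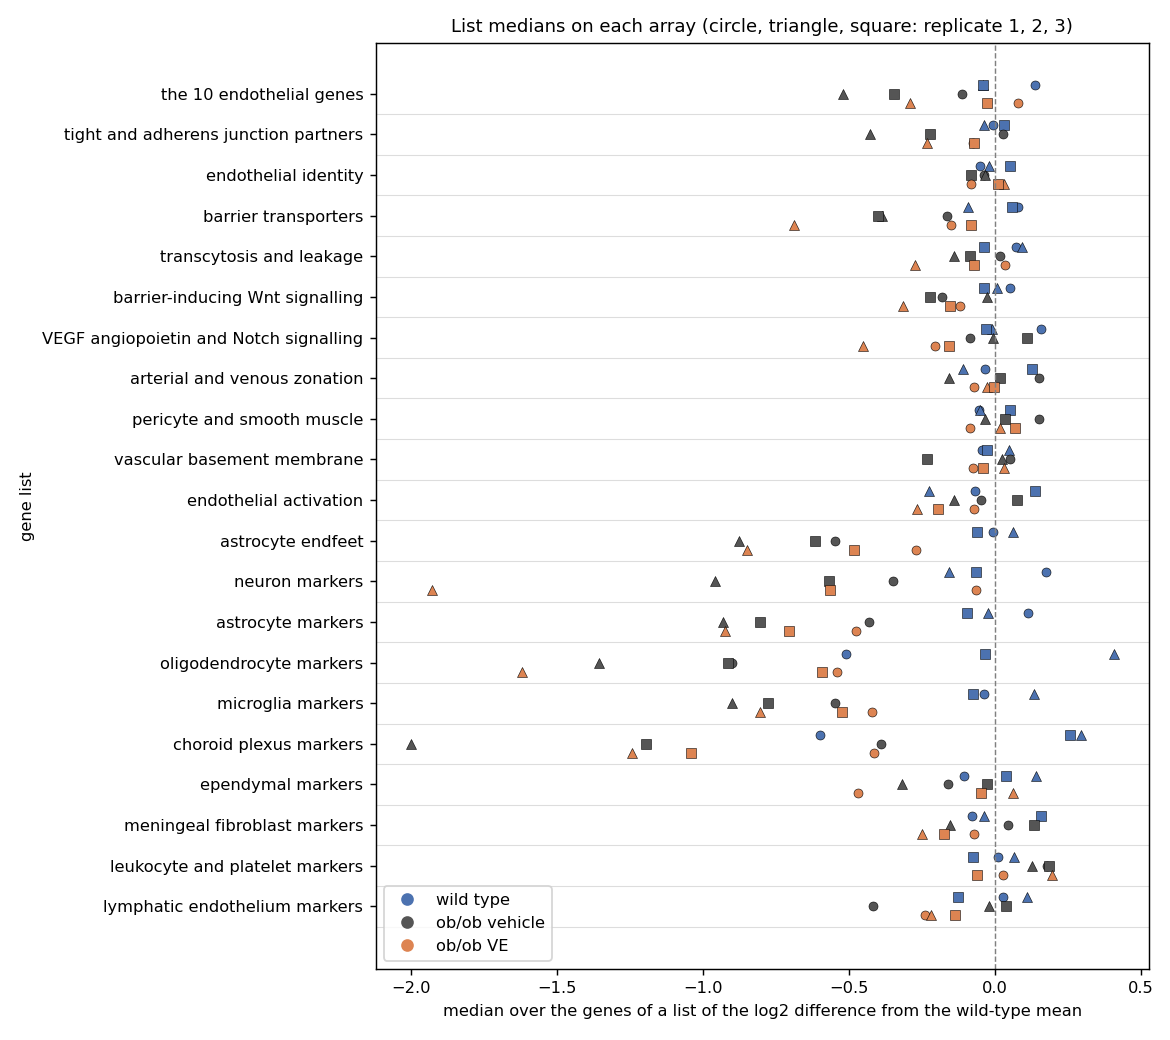
Median over each gene list (vertical axis) of the log2 difference from the wild-type mean (horizontal axis), 1 point per array, coloured by group. The 10 endothelial genes span -0.52 to -0.11 in ob/ob vehicle, and the endothelial identity list stays between -0.08 and 0.05 on all 9 arrays. Neuron, glial and choroid plexus markers reach lower. The lists differ in brightness: 3 of 25 identity genes lie above the median level of all probe sets, against all 8 neuron and 6 astrocyte markers.

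The mean profile of the 10 genes over the 9 arrays, each gene centred on its own mean, was highest on wild-type array 1 (0.24) and lowest on ob/ob vehicle array 2 (-0.37). Single genes departed from this mean: the 45 pairs among the 10 had a Pearson r of -0.72 to 0.79 over the 9 arrays. The median r of the pairs was 0.13, and 25 of the 45 were above 0. Among 9766 other probe sets with 1 symbol and a mean above the median level, the 8 most similar profiles were those of Cask, Daglb, Fez2, Ssx2ip, Kazn, Tfdp2, Iars2 and Surf2. Their Pearson r was 0.959 to 0.967 over 9 arrays and 0.963 to 0.991 without VE array 2, given as a description because the arrays share their groups. None of the 8 is in the gene lists used here.

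The leading differences crossed the threshold under some settings. Over 17 alternatives the Ocln difference between ob/ob vehicle and wild type passed in 4, and over 16 alternatives the Cldn5 difference between VE and ob/ob vehicle passed in 3. The sign was the same in all of these. Where Ocln passed, 8.87% to 16.2% of all probe sets were called, against 1.27% as reported. Where Cldn5 passed, the share was 1.46% to 14.9%, against 0.486% as reported.

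**Figure D4:**
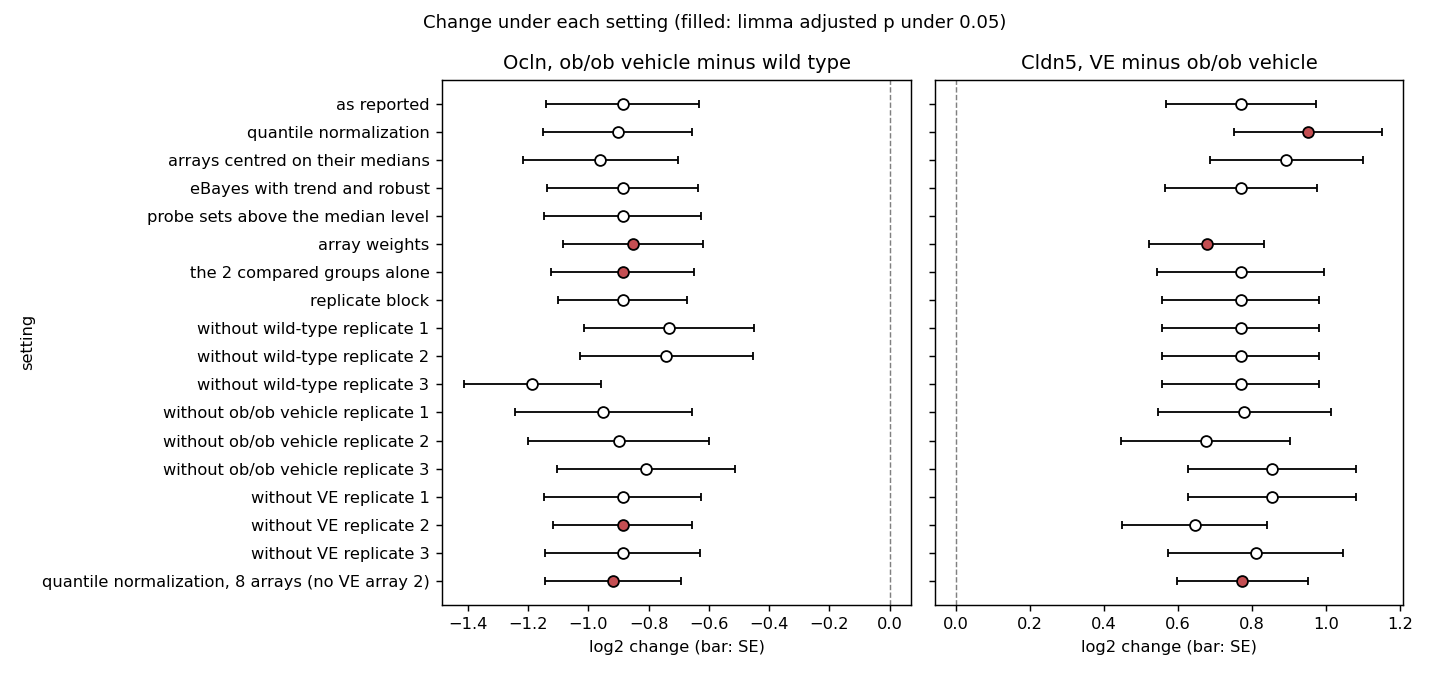
Log2 difference with its SE (horizontal axis) of Ocln between ob/ob vehicle and wild type and of Cldn5 between VE and ob/ob vehicle, under each setting (vertical axis). Filled points passed a limma adjusted p under 0.05, and Cldn5 has no point for probe sets above the median level because it lies below that level.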

How the data were processed

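The values were log2 signals per probe set that the authors deposited. Per the labels' protocols and the design text, total RNA was hybridized to Clariom S arrays, and signals were made with SST-RMA in Transcriptome Analysis Console 4.0.2. This step brings arrays to a common scale but left the second VE array with a smaller spread. The record is not uniform on tissue and dose. Its design text names white adipose tissue and a 50 mg/kg group, while the sample labels name brain and 100 mg/kg. The labels were followed here. Detection calls were not used here. Probe sets were named through the platform annotation (19572 with 1 symbol, 2634 with none, 0 with several), and RefSeq tables on GRCm38.p6 gave chromosomes and promoter windows.

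In R 4.3.3, limma 3.58.1 estimated 3 group means for each of 22206 probe sets from all 9 arrays. Variances were moderated with eBayes (degrees of freedom: 6 residual, 7.03 prior), p-values were adjusted by Benjamini-Hochberg across every probe set, and those under 0.05 were called. Intervals are 95% and not adjusted. The number of arrays, 3 per group, limits the precision, and no pair of arrays correlated above 0.993. The script was tested on simulated data. The 10 genes and the lists (228 genes in 21 lists, of which 210 were measured) were chosen with earlier results of these data known. Named genes are the 10, up to 3 per list with the smallest p in a comparison, the 4 relatives of the transporters and the 8 most similar profiles. Values of Slco1a1, Slco1a5, Slco1a6 and Abcb1b are given whatever their p.

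The replicate numbers of the labels were checked for pairing. Deviations from group means of same-numbered arrays correlated at -0.03 to 0.33, above 0.1 in 4 of 9 pairs. Differently numbered arrays correlated at -0.29 to 0.11. The highest values were between ob/ob vehicle and VE arrays numbered 1 (0.33) and numbered 2 (0.22). These values do not settle whether the arrays are paired, and the main fit did not pair them. Alternatives were quantile normalization, centring of arrays, the rule of the design text (unadjusted p under 0.05 and fold over 1.1), eBayes with trend and robust options, restriction to probe sets brighter than the median level, array weights, the compared groups alone, a replicate block, and leaving out each array. Quantile normalization of the 8 arrays other than VE array 2 was added after seeing the data.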

Additional observations from a re-analysis of the deposited data

How the results depend on the processing

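The count of the 10 genes called was 0 in each comparison. By the design text rule (unadjusted p under 0.05, fold over 1.1) it was 2 in ob/ob vehicle against wild type (20.1% of all probe sets), 2 in VE against ob/ob vehicle (13.3%), 1 in VE against wild type (12.2%) and 3 for any difference among the groups (19%). With array weights, which gave VE array 2 a weight of 0.145 and VE array 3 one of 6.7, the counts were 1, 3, 2 and 4, with 16.2%, 14.9%, 14.8% and 28.5% of all probe sets called. After quantile normalization 1 gene passed in VE against ob/ob vehicle (1.46% of all probe sets). With the compared groups alone 1 passed in ob/ob vehicle against wild type (11.8%). Quantile normalization of the 8 arrays other than VE array 2 gave 2 in ob/ob vehicle against wild type (Cldn5 and Ocln). It gave 1 in VE against ob/ob vehicle (Cldn5), 0 in VE against wild type and 1 for any difference. The shares of all probe sets called were then 8.87%, 1.88%, 0.0856% and 5.85%. Leaving out single arrays gave 0 to 1 in ob/ob vehicle against wild type (0 to 13.4% of all probe sets). The count was then 0 in VE against ob/ob vehicle (0 to 1.81%), VE against wild type (0 to 0.712%) and any difference (0 to 8.67%). With the replicate block the counts were 0 in all comparisons, with 1.13%, 0.648%, 0.00901% and 0.901% of all probe sets called. The block changed no call among the 10, while the calls of Kl and Aqp4 in ob/ob vehicle against wild type were lost (limma adjusted p 0.0526 and 0.0538). The causes of these shifts were not tested.

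The median difference of the 10 genes in VE against ob/ob vehicle was 0.24 as reported, 0.41 after quantile normalization and 0.41 with the 6 genes above the median level. Leaving out single arrays gave -0.46 to -0.20 in ob/ob vehicle against wild type, 0.12 to 0.30 in VE against ob/ob vehicle and -0.10 to 0.12 in VE against wild type. Centring of arrays moved the median of all probe sets in VE against ob/ob vehicle by 0.123, to 0.06.

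Signs turned in 23 of the gene differences recomputed, over 8 genes. In VE against ob/ob vehicle Flt1 stood at 0.030 after quantile normalization, 0.077 with centring, 0.16 with array weights and 0.052 with quantile normalization of 8 arrays, and at -0.16 to 0.082 over single arrays left out. Esam stood there at -0.20 with array weights and -0.055 with quantile normalization of 8 arrays, and at -0.16 to 0.28 over arrays left out. Mfsd2a ran from -0.37 to 0.12 over arrays left out. In VE against wild type Pecam1 stood at 0.13 with array weights and 0.051 with quantile normalization of 8 arrays, and at -0.30 to 0.073 over arrays left out. With array weights Tie1 stood at -0.035, Flt1 at 0.016 and Slco1a4 at -0.027, and Flt1 at 0.0029 with quantile normalization of 8 arrays. Over arrays left out Cdh5 ran from -0.068 to 0.23, Tie1 from -0.038 to 0.24, Abcb1a from -0.12 to 0.23 and Esam from -0.36 to 0.08 in that comparison. No other difference of the 10 genes changed sign.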
